A study of Mus musculus with 2 samples.

Results

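The MHC class II presentation genes are a set of 10 named genes, H2-Aa, H2-Ab1, H2-Eb1, Cd74, H2-DMa, H2-DMb1, H2-DMb2, H2-Oa, Ciita and Ctss, out of 32285 genes in the files. They were read in 2 single-cell RNA libraries of live CD45+ cells sorted from subcutaneous tumours of B6 mice, collected at day 14. The tumours grew from B16.SIY cells, a mouse melanoma line, stably transduced with a control shRNA lentivirus in 1 group and with a Decr2 shRNA lentivirus in the other. Both kinds of cell had been held in 1.5 µg/mL puromycin for 3 days before injection. The shRNA was given to the tumour cells before injection and not to the host. There was 1 library per group, and the number of mice behind each was not given, so the differences below carry no replicate error and no p-value.

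Class II molecules hold peptides from endosomes and show them to CD4 T cells. H2-Aa and H2-Ab1 code for the chains of I-A, and H2-Eb1 for the beta chain of I-E, whose alpha chain B6 mice do not make. Cd74, the invariant chain, fills the groove until the protease cathepsin S (Ctss) trims it, H2-DM (H2-DMa with H2-DMb1 or H2-DMb2) exchanges the remnant for peptide, and H2-O, of which H2-Oa is the alpha chain, restrains H2-DM. Ciita, the class II transactivator, binds no DNA itself and acts through factors seated on the X and Y boxes of these promoters. Dendritic cells, B cells and macrophages are the usual presenting cells, and many other cells gain class II through Ciita under interferon gamma.

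Unique molecular identifiers (UMIs) were counted per gene and cell, and a level is a gene's UMIs per 1000000 UMIs of a cell class in a library (CPM). Cells were put into 8 classes by marker genes that included no class II gene. The control and knockdown libraries gave 255 and 257 dendritic cells, 294 and 217 B cells, 105 and 86 plasmacytoid dendritic cells, 135 and 127 macrophages and 640 and 453 monocytes. They also gave 66 and 56 melanoma cells, 2808 and 2163 T cells and 2659 and 2053 NK cells. Median depth was higher in the knockdown library for every class (for T cells 3780 and 6479 UMIs), except melanoma cells, with 32054 UMIs in control and 3576 in knockdown cells. In melanoma cells the targeted gene Decr2 had 19 control and 3 knockdown UMIs, 9.19 and 2.30 CPM, a ratio of 0.250 (0.0474 to 0.850). Brackets hold exact 95% confidence bounds, which cover only counting error. Between 71.8% and 84.5% of each member's UMIs in kept cells lay in these gates, and 34 cell barcodes occurred in both libraries.

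Promoters are shown because Ciita acts through boxes in them. RefSeq promoter windows (GRCm38.p6, 250 bases before to 50 after a start) were found for 7 of the 10 members. The stretches below run 5′ to 3′, with the Y box GATTGG and the X box core AACNNATGATG in capitals.
H2-Aa (chr17:34287847-34287932, minus strand): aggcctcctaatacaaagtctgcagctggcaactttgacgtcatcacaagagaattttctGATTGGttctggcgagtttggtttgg
H2-Eb1 (chr17:34305747-34305832, plus strand): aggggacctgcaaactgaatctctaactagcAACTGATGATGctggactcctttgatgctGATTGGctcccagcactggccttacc
H2-DMb1 (chr17:34153069-34153154, plus strand): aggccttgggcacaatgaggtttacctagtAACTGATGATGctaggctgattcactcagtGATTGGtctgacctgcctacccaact
H2-DMb2 (chr17:34145098-34145183, plus strand): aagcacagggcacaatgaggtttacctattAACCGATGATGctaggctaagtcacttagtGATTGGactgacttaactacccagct
H2-Oa (chr17:34092275-34092360, plus strand): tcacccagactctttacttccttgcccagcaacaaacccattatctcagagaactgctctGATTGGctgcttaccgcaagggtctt
The Y box began 44 to 91 bases before the start in these 5 genes, all within the class II region of chromosome 17. H2-Eb1, H2-DMb1 and H2-DMb2 also held the X box core, which began 29 or 30 bases before the Y box, while these letters were not in the windows of H2-Aa or H2-Oa. One of the windows of H2-DMa held a Y box 199 bases before its start, and that of Ctss held neither motif on either strand. Of 32851 RefSeq windows of this length, 16.1% held GATTGG, 0.137% AACNNATGATG and 0.0335% both, counting both strands. The motifs do not overlap each other, and both were chosen after these promoters had been read.

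The alpha, beta and invariant chain genes were highest in dendritic cells, then B cells, and lowest in T cells in both libraries. Plasmacytoid cells and macrophages, which came next, changed places by gene and library. H2-Aa was at 6258 CPM in control and 6198 in knockdown dendritic cells, 4104 and 3561 in B cells, 1529 and 1210 in plasmacytoid cells and 1348 and 1252 in macrophages. H2-Aa then fell to 741 and 673 CPM in monocytes, 359 and 496 in melanoma cells, 43.2 and 54.7 in NK cells and 24.4 and 20.6 in T cells. The intervals of plasmacytoid cells and macrophages overlapped for H2-Aa, at 1415 to 1649 and 1266 to 1435 CPM in control cells and 1122 to 1302 and 1178 to 1329 in knockdown cells. Those of the other neighbours in this order did not. H2-Ab1 ran from 6667 and 6334 CPM in dendritic cells to 26.9 and 24.1 in T cells, and H2-Eb1 from 4687 and 4789 to 19.3 and 17.1. For H2-Eb1 macrophages stood above plasmacytoid cells, at 983 and 838 against 824 and 559 CPM, though in the control library the interval of macrophages (912 to 1057) touched that of plasmacytoid cells (741 to 913). Cd74 was at 16919 and 17130 CPM in dendritic cells, 13654 and 13134 in B cells, 1116 and 1388 in melanoma cells and 94.8 and 99.9 in T cells.

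**Figure D1:**
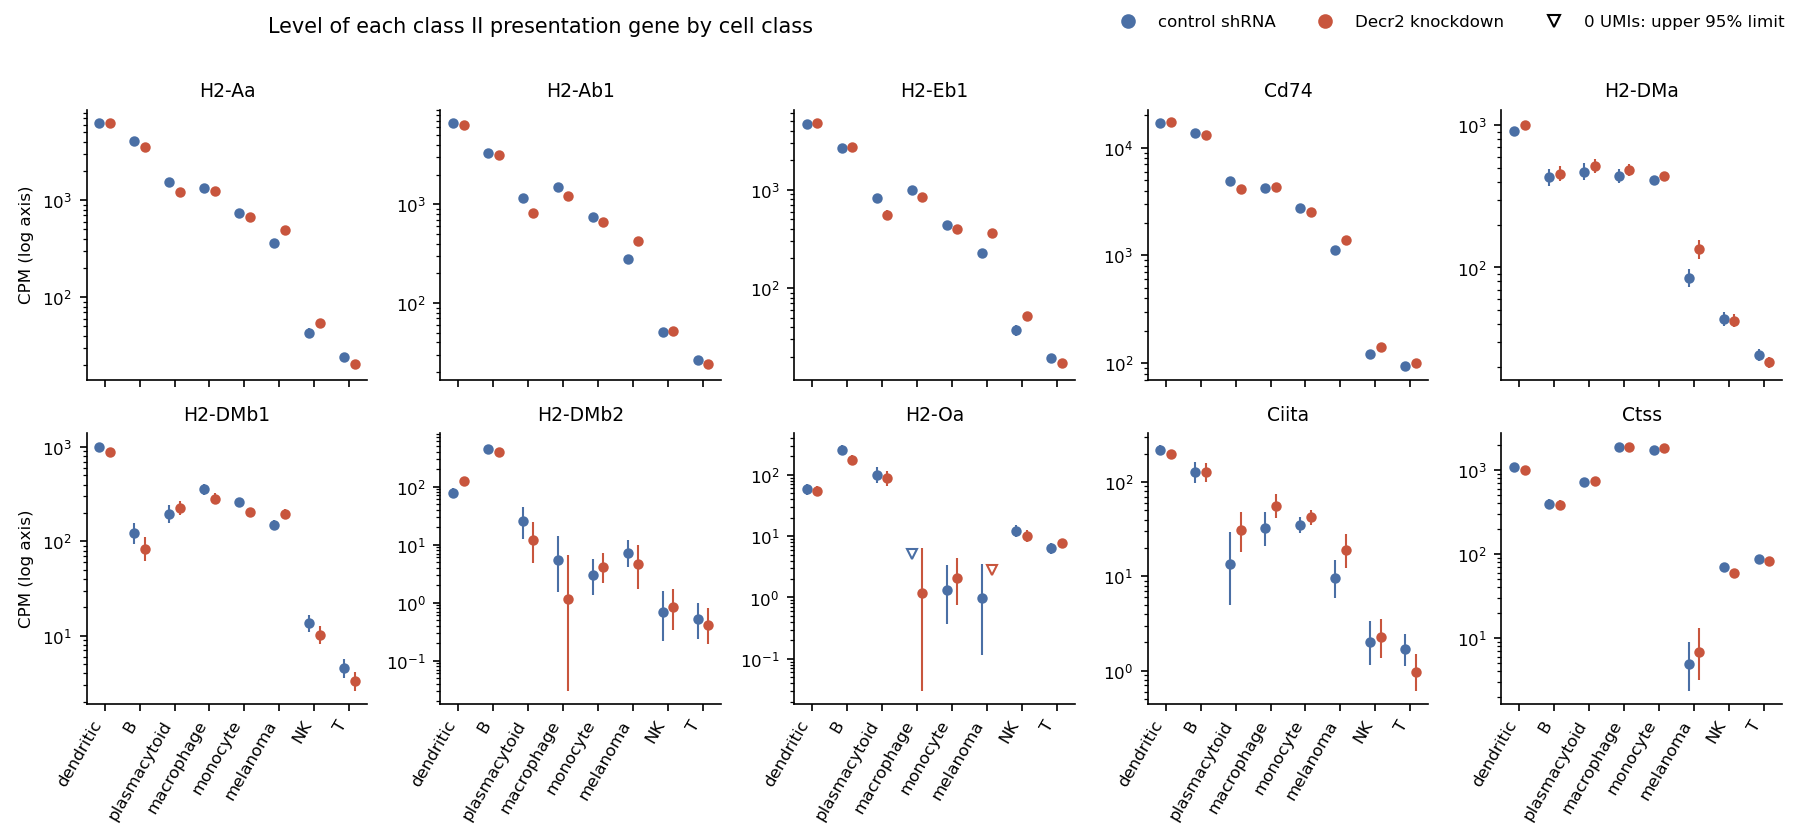
CPM of each of the 10 genes (log axis, a separate scale per panel) in 8 cell classes, for the control shRNA library and the Decr2 knockdown library; points are summed levels, bars exact 95% Poisson intervals, and open triangles the upper limit where no UMI was seen. H2-Aa, H2-Ab1, H2-Eb1 and Cd74 are highest in dendritic cells, then B cells, and lowest in T cells. Plasmacytoid cells and macrophages change places by gene and library. Ctss is highest in macrophages and monocytes, and H2-DMb2 and H2-Oa are highest in B cells.

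The 4 chain genes together (H2-Aa, H2-Ab1, H2-Eb1 and Cd74) made 34531 and 34452 CPM of dendritic cells in the control and knockdown libraries. B cells had 23771 and 22591 CPM, plasmacytoid cells 8458 and 6702, macrophages 8092 and 7626 and monocytes 4668 and 4288. Melanoma cells had 1982 and 2678 CPM, NK cells 252 and 300, and T cells 165 and 162. Counted per cell barcode the gap between dendritic and B cells widened, to 199 and 285 UMIs against 39.0 and 64.5, since B cells had a median of 1561 and 2561 UMIs. In these sums more cells with the transcript and more transcript per cell cannot be told apart, so single cells were compared at equal depth.

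At 1000 UMIs per cell, B cells were uniform and myeloid cells were not. Of control B cells 96.4% (93.5 to 98.3) held at least 10 UMIs of the 4 chain genes, and of knockdown B cells 97.6% (94.5 to 99.2). The middle 80% of B cells ran from 15 to 35 UMIs in control cells and from 13.8 to 34 in knockdown cells. Dendritic cells had a higher median, 33.0 and 32.0 UMIs against 24.0 and 23.0, but a longer lower tail, with 87.0% (82.2 to 90.8) and 78.6% (73.1 to 83.5) at 10 or more. Macrophages had a median of 2 UMIs in both libraries with 25.9% and 27.8% of cells at 10 or more, and monocytes a median of 0 with 14.4% and 12.4%. In the myeloid classes the summed level thus came mostly from a minority of cells. The macrophage with most UMIs of these genes showed 2 dendritic and 7 macrophage markers in the control library. In the knockdown library it showed 3 and 4. The part of dendritic cell RNA in the macrophage level was not tested. No melanoma cell reached 10 UMIs per 1000, among 63 control and 45 knockdown cells, which allows a share of up to 4.76% and 6.67% by the floor of 3 counts, and 5.69% and 7.87% by the exact 95% bound.

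**Figure D2:**
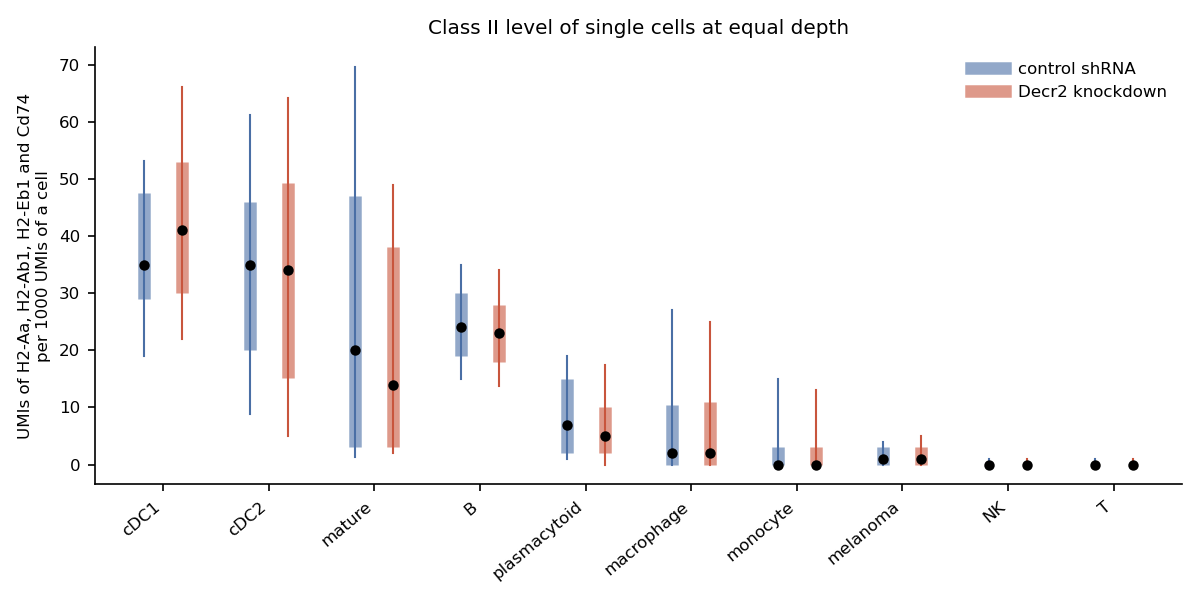
UMIs of H2-Aa, H2-Ab1, H2-Eb1 and Cd74 in single cells thinned to 1000 UMIs, by class and library; dots are medians, thick bars the middle 50% of cells and thin lines the middle 80%. B cells sit between 13.8 and 35 UMIs, while monocytes have a median of 0 and an upper line at 15 and 13.

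Within dendritic cells, cDC1, cDC2 and mature cells were told apart by their own markers, with 56 and 55, 120 and 110, and 26 and 51 cells. cDC1, which carry Xcr1 and Clec9a, had 38432 and 44088 CPM of the 4 chain genes, cDC2 35363 and 32863, and mature cells, which carry Ccr7 and Fscn1, 28785 and 24421. At 1000 UMIs the middle 50% of mature cells lay between 3.00 and 47.0 UMIs in control cells and 3.00 and 38.0 in knockdown cells, and that of cDC2 between 20 and 46 and between 15.2 and 49.2. Other members parted the mature cells from the rest more sharply. H2-DMb1 was at 115 (59.6 to 201) and 116 (81.1 to 162) CPM in mature cells against 1203 and 1098 in cDC2. Ciita was at 57.6 and 86.4 CPM in mature cells, 204 and 195 in cDC2 and 272 and 214 in cDC1. These mature values rested on 12 and 35 UMIs of H2-DMb1 and 6 and 26 of Ciita.

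The exchange genes did not follow the chain genes everywhere. H2-DMa stood at 907 and 1008 CPM in dendritic cells, and between 412 and 514 CPM in B cells, plasmacytoid cells, macrophages and monocytes of either library. H2-DMb1 was at 991 and 880 CPM in dendritic cells, 356 and 284 in macrophages and 259 and 204 in monocytes, but 122 and 84.0 in B cells. H2-DMb2 had the reverse pattern, 448 and 400 CPM in B cells, 77.0 and 122 in dendritic cells and 5.45 and 1.17 in macrophages. Of the UMIs of this pair, H2-DMb2 took 78.5% (73.2 to 83.2) and 82.7% (77.9 to 86.8) in B cells, and 1.51% and 0.408% in macrophages. Mature dendritic cells stood between, at 63.6% (45.1 to 79.6) and 39.7% (27.0 to 53.4), against 4.73% and 10.5% in cDC2. H2-DMb1 and H2-DMb2 are near copies of each other, so how reads were divided between them is uncertain.

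H2-Oa, the alpha chain of the H2-DM inhibitor, was highest in B cells, then in plasmacytoid cells. It was at 253 (210 to 302) and 176 (145 to 212) CPM in B cells, 100 and 87.1 in plasmacytoid cells and 57.9 and 54.1 in dendritic cells. Macrophages had 0 control UMIs and 1 knockdown UMI, where 3 counts would be 4.09 and 3.50 CPM, and monocytes had 4 and 6 UMIs. Levels in B cells thus exceeded the limit set by the counts in macrophages by more than their intervals.

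Ctss had its own order, with macrophages at 1857 and 1861 CPM and monocytes at 1733 and 1803 above dendritic cells at 1069 and 1005. Plasmacytoid cells had 717 and 747 CPM and B cells 392 and 384. For each 100 UMIs of the 4 chain genes there were 37.1 and 42.1 UMIs of Ctss in monocytes, 22.9 and 24.4 in macrophages, 3.10 and 2.92 in dendritic cells and 1.65 and 1.70 in B cells. Ciita, the regulator, was at 220 and 200 CPM in dendritic cells, 129 and 128 in B cells, 32.7 and 56.0 in macrophages and 35.4 and 42.2 in monocytes. Per 100 UMIs of the chain genes Ciita lay between 0.404 and 0.983 in these 4 classes. Plasmacytoid cells held less in the control library, 0.161 (0.0592 to 0.351), from 6 UMIs, and 0.459 (0.272 to 0.725) in the knockdown library.

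Among monocytes, most of the pathway differed by the number of monocyte markers seen. The values are sums over groups of cells, so a graded level and a changing share of high cells cannot be told apart. Among cells that passed the monocyte gate, the 4 chain genes were lower the more of the 8 monocyte markers a cell showed. Control cells with 4, 5, 6, 7 and 8 markers had 15647, 7075, 4287, 1568 and 342 CPM, and knockdown cells 14069, 10189, 3777, 939 and 487. Ciita went from 66.3 to 4.09 CPM and from 137 to 4.83 between the ends, and H2-DMb1 from 464 to 75.7 and from 465 to 80.4. H2-DMa went from 569 to 250 CPM and from 720 to 288. Ctss stayed between 1591 and 1923 CPM at every step. The summed dendritic marker lists also differed between the ends, at 451 and 196 CPM in the control library and 624 and 277 in the knockdown library. The part of these lists in the differences between steps was not tested. Monocytes with 0, 1 and 2 dendritic markers had 3132, 4353 and 7395 CPM of the chain genes in the control library and 2749, 3894 and 5845 in the knockdown library. Cells with more dendritic markers had been left out by the monocyte gate.

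**Figure D3:**
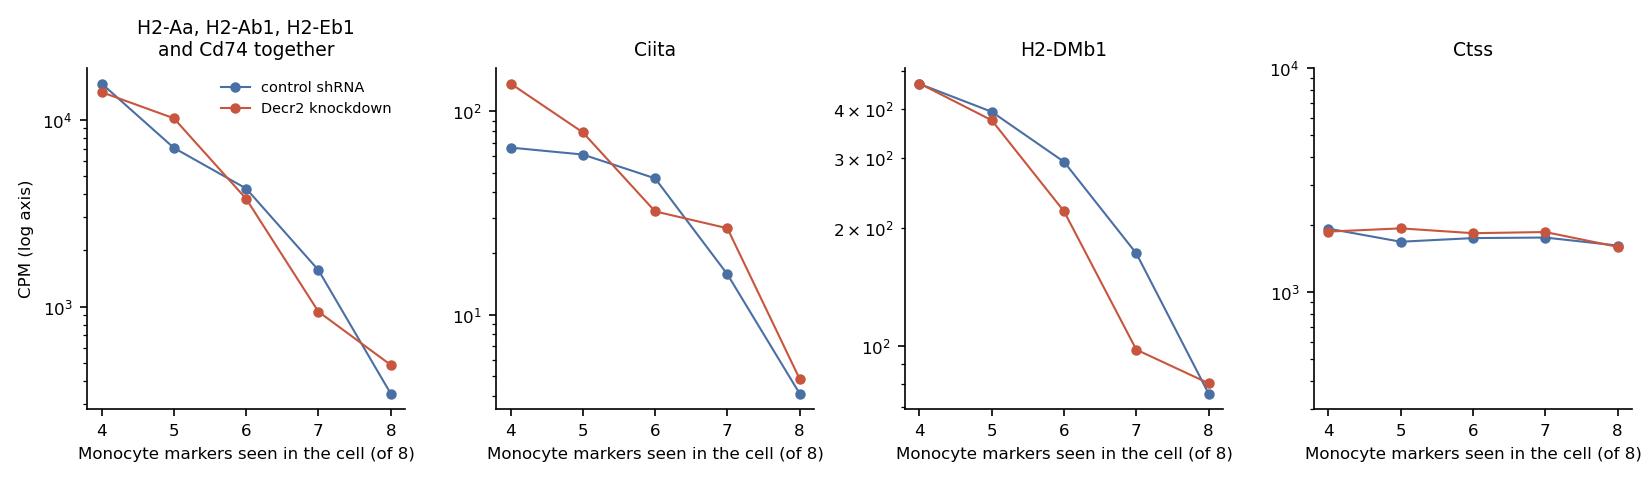
CPM (log axes) of the 4 chain genes together, Ciita, H2-DMb1 and Ctss in monocytes grouped by how many of 8 monocyte markers were seen in the cell, for both libraries; each group holds 50 to 178 cells. The chain genes, Ciita and H2-DMb1 are lowest at 8 markers in both libraries, while Ctss stays between 1591 and 1923 CPM.

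Melanoma cells carried class II transcripts above the level of T cells. The 4 chain genes were 12 times the T cell level in control cells and 16.6 times in knockdown cells, or 62.1 and 62.4 UMIs per barcode against 1.01 and 1.61. With cells gated after thinning to 1000 UMIs the multiples were 6.40 and 15.6, and in UMIs per barcode 61.4 and 38.8. Melanoma cells below 5000 UMIs had 2.65 and 4.34 UMIs of these genes per barcode. At least 1000 CPM was reached by 34 of 66 control and 36 of 56 knockdown cells. Of the Ciita UMIs of melanoma cells, 20 of 20 in the control library and 23 of 25 in the knockdown library lay in those cells. Those cells held 1197470 and 1012611 UMIs against 870347 and 292702 in the other melanoma cells. Cells at 1000 CPM or more were unlike in depth, at medians of 39073 UMIs (control) and 3576 (knockdown). A shallow cell reaches 1000 CPM with fewer chain gene UMIs. The shares of cells at this level, and the Ciita UMIs in them, are thus not comparable between libraries.

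The makeup of the pathway in melanoma cells differed from that of the immune classes. Ctss was nearly missing, with 10 and 9 UMIs, 4.84 (2.32 to 8.89) and 6.89 (3.15 to 13.1) CPM, below T cells at 86.4 and 83.5 CPM. Per 100 UMIs of the chain genes there were 0.244 (0.117 to 0.449) and 0.257 (0.118 to 0.489) UMIs of Ctss, against at least 1.65 in control and 1.70 in knockdown B cells. H2-DMb1 ran the other way, at 7.59 (6.77 to 8.48) and 7.24 (6.37 to 8.19) per 100, above the 2.87 and 2.55 of dendritic cells and the 4.40 and 3.73 of macrophages. Ciita, at 9.67 and 19.2 CPM, gave 0.488 (0.298 to 0.754) and 0.715 (0.463 to 1.06) per 100, within the span of the immune classes. H2-Oa had 2 and 0 UMIs.

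Markers of B cells, macrophages and cDC2 were close to 0 in the melanoma cells, and those of cDC1 and plasmacytoid cells were not. The melanoma gate itself had left out cells with more than a few B cell, shared myeloid, dendritic or plasmacytoid markers. Low values of those lists were thus partly set by the gate. The 6 cDC2 markers had 0 UMIs in both libraries, 2 of 8 B cell markers were seen in each, at a sum of 3.39 and 1.53 CPM, and 3 and 1 of 9 macrophage markers at 2.42 and 0.766 CPM. The 5 shared myeloid markers summed to 58.0 and 64.4 CPM, against 15572 and 19067 in macrophages. Ptprc, the gene of CD45, had 31 and 28 UMIs, 15 and 21.5 CPM. The cDC1 and plasmacytoid lists were higher, at 151 and 159 CPM from 2 and 3 of 7 markers and 730 and 1172 CPM from 5 and 4 of 8, where dendritic cells had 711 and 792 CPM of the plasmacytoid list. Their part in the class II level was not tested.

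T and NK cells, in which mouse class II genes are not known to be active, were compared with reference genes of other cell types, since free RNA in a droplet adds UMIs to any cell. The T and NK gates had already left out cells with many B cell, dendritic or shared myeloid markers. Each gene is written here as a percent of its own level over the whole library. In T cells H2-Aa, H2-Ab1, H2-Eb1, Cd74, H2-DMb1 and H2-DMb2 stood at 2.99% to 5.65%, where H2-DMb2 rested on 9 UMIs in each library. The dendritic cell gene Plbd1 was at 3.00% and 2.84% there, the myeloid genes Thbs1 and Cxcl2 at 2.95% to 3.43%, and the immunoglobulin gene Iglc2 at 2.70% and 1.98%. The other dendritic reference genes were higher in T cells, with Naaa at 10.6% and 10.9% and Ckb at 19.8% and 22.4%. Cst3 was at 20.5% and 18.5% and Ppt1 at 56.9% and 56.1%. In T cells the chain genes thus lay above Plbd1, Thbs1, Cxcl2 and Iglc2 and below the other dendritic reference genes. The chain genes were not above every low myeloid gene. Ms4a6c was at 4.04% and 4.83% in T cells, in the knockdown library above H2-Aa (3.53%), H2-Ab1 (4.21%) and H2-Eb1 (3.96%). Fn1, another myeloid gene, was at 4.23% and 2.96%, beside 4.26% for H2-Aa in the control library. In NK cells the same 6 members stood at 5.98% to 12.5%, with Plbd1 at 5.32% and 4.82% and Ms4a6c, a monocyte gene, at 8.20% and 7.09%. H2-DMb2 rested on 5 and 7 UMIs in NK cells. Ciita was at 7.89% and 4.42% in T cells and 9.50% and 10.3% in NK cells, from 15 to 29 UMIs.

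3 members were well above those 6 in both lymphocyte classes. Ctss was at 24.4% and 24.9% of its library level in T cells and 20% and 17.9% in NK cells. H2-DMa was at 17.6% and 14.6% in T cells and 31.4% and 28.6% in NK cells. H2-Oa was at 46.7% and 59.2% in T cells and 89.6% and 76.2% in NK cells, which is 6.35 and 7.80 CPM and 12.2 and 10.0 CPM. As a percent of the dendritic level, H2-Oa was at 11% and 14.4% in T cells and H2-Aa at 0.389% and 0.332%, and the source of this RNA was not tested. Against B cells, where H2-Oa is highest, the T cell share was 2.51% and 4.43%, and that of H2-DMb2, another gene highest in B cells, 0.117% and 0.104%. The T cell values of H2-DMb2 came from 9 UMIs in each library. At 1000 UMIs per cell Cd74 was seen in 10.4% of T cells in either library, against 96.0% and 95.7% of dendritic cells, and without thinning in 29.5% and 41.5% of T cells. Some reference genes were also high in lymphocytes, up to 98.7% and 109% for Mt2 in T cells, so the set has no single background value. Of the dendritic reference genes in NK cells, Cst3 was at 18.3% and 17.1%, Ckb at 22.7% and 26.9% and Ppt1 at 77.9% and 78.8%. In both lymphocyte classes Ctss and H2-DMa lay above Plbd1 and Naaa and below Ppt1, within the span of the dendritic reference genes. As a percent of the dendritic level, Ppt1 was at 15.5% and 15.7% in T cells and 21.3% and 22.1% in NK cells. Plbd1 was at 0.351% and 0.322% in T cells and 0.622% and 0.547% in NK cells. Whether lymphocytes make Ppt1 RNA themselves was not tested, so within this span free RNA and own transcript cannot be told apart. H2-Oa was above Ppt1 in knockdown T cells and control NK cells and below it in the other library of each class. The 4 chain genes together were 0.479% and 0.469% of the dendritic level in T cells and 0.731% and 0.870% in NK cells. Gating at 1000 UMIs moved the T cell shares to 0.908% and 0.775%, and UMIs per barcode moved the NK shares to 0.352% and 0.429%.

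**Figure D4:**
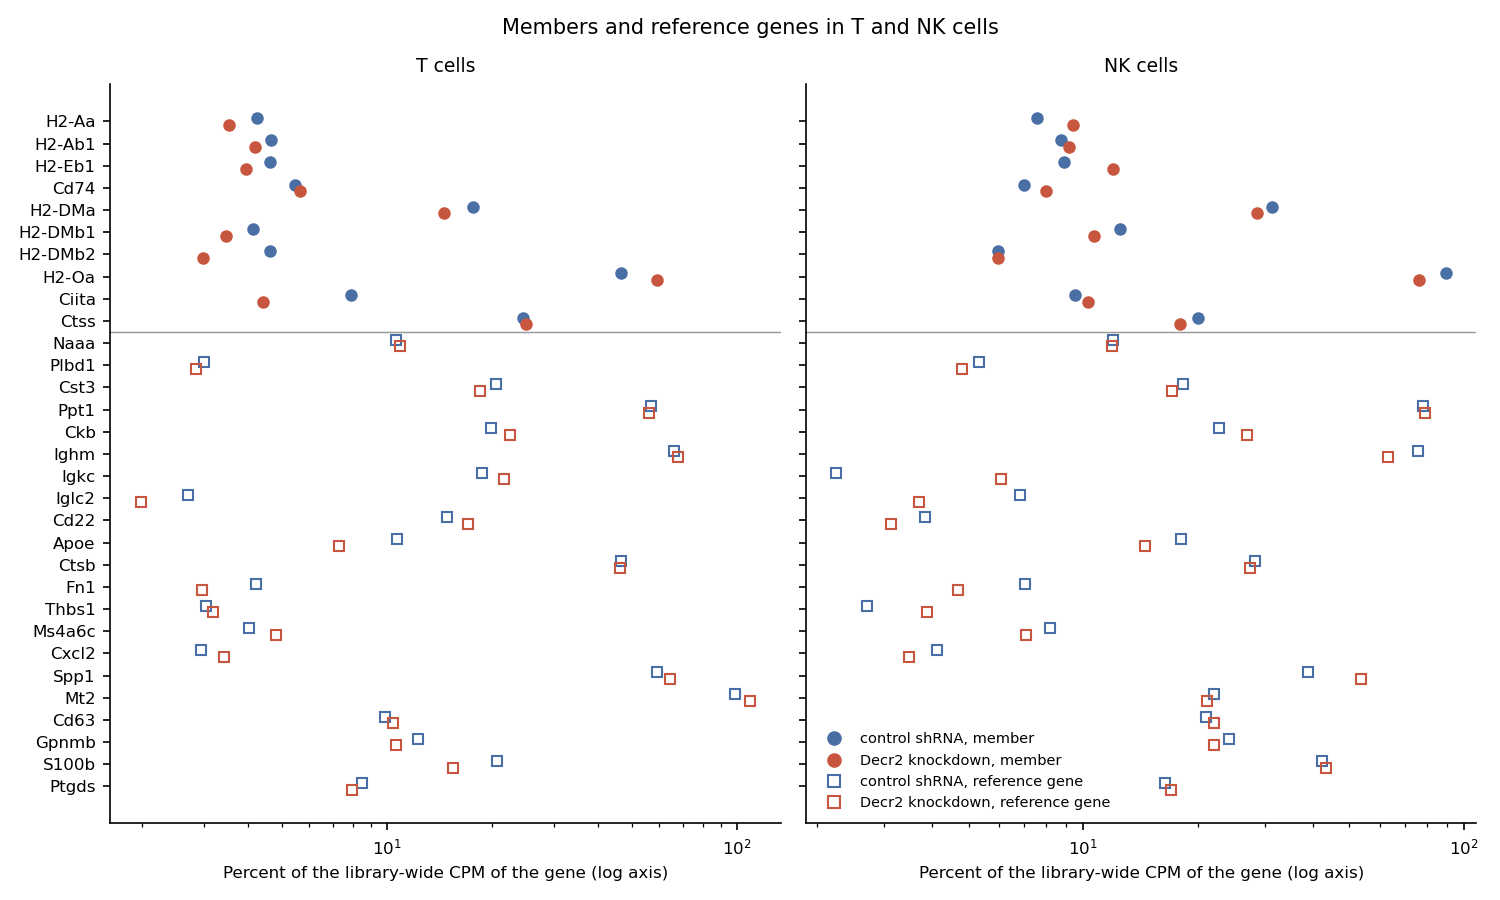
Level in T cells (left) and NK cells (right) as a percent of the library-wide CPM of the same gene (log axes); filled circles are the 10 members and open squares reference genes of dendritic, B, myeloid and melanoma cells, coloured by library. H2-Aa, H2-Ab1, H2-Eb1, Cd74, H2-DMb1 and H2-DMb2 lie between 2.99% and 5.65% in T cells, and H2-DMa, Ctss and H2-Oa lie to their right in both panels.

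Which genes of the whole table share the pattern was described by correlation over 16 points, the 8 classes in both libraries. The points of a class share its gate and those of a library its depth, so the coefficients are descriptions. Against the mean log2 level of the 4 chain genes, Ciita had a Pearson coefficient of 0.934, H2-DMa 0.954, H2-DMb1 0.880, H2-DMb2 0.732, Ctss 0.607 and H2-Oa 0.541. The 8 highest of 5534 other genes were Rassf3 (0.929), Plekho1 (0.927), Pkib (0.911), Wdfy4 (0.900), Fgd2 (0.894), March1 (0.882), Cd24a (0.880) and Abraxas2 (0.873). Wdfy4 was among the dendritic gate markers. March1, which codes for a ubiquitin ligase that removes class II from the surface, was at 84.5 and 78.2 CPM in dendritic cells, 116 and 116 in B cells and 68.8 and 66.8 in monocytes. Melanoma cells had 0 and 0.766 CPM of March1.

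Knockdown was set against control in each class by the ratio of CPM. A gene was measured where both libraries together gave 30 UMIs or more and 1 of them 50 CPM, and it was past the fold at a ratio of at most 0.8 or at least the inverse of 0.8. In dendritic cells, with 10 of the 10 members measured, 1 was past the fold, against 23.1% of all 2866 genes measured there. The 4 chain genes had ratios from 0.95 to 1.02, and together 0.998 (0.986 to 1.01). The median log2 ratio of the members was -0.04, beside -0.02 for all genes. The exception was H2-DMb2, with 113 and 259 UMIs, 77.0 CPM (63.4 to 92.5) against 122 CPM (108 to 138), a ratio of 1.58 (1.27 to 1.99). H2-DMb2 was higher in knockdown cDC1 (1.78, 1.19 to 2.72) and cDC2 (2.16, 1.49 to 3.17) and lower in knockdown mature cells (0.379, 0.201 to 0.720). With cells gated at 1000 UMIs its ratio over all dendritic cells was 1.12. The chain genes also differed by subset, at 1.15 (1.12 to 1.17) in cDC1, 0.929 (0.914 to 0.945) in cDC2 and 0.848 (0.813 to 0.885) in mature cells.

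B cells had the chain genes at 0.95 (0.927 to 0.974) of control. Of 10 measured members 2 were past the fold, both lower, against 35.0% of all 2908 genes measured in B cells. H2-Oa was at 0.695 (0.532 to 0.908), from 122 and 109 UMIs, and stayed past the fold under each of the 9 alternatives in processing. H2-DMb1 was at 0.686 (0.463 to 1.01), from 59 and 52 UMIs, and at 0.865 when cells came from clusters. Plasmacytoid cells had the chain genes at 0.792 (0.757 to 0.829), and 3 of 8 measured members past the fold, all lower, against 34.5% of 3210 genes. These were H2-Aa at 0.791 (0.711 to 0.881), H2-Ab1 at 0.704 (0.621 to 0.799) and H2-Eb1 at 0.678 (0.582 to 0.790). With doublets kept, the chain genes were at 0.837 and H2-Aa at 0.855. At 1000 UMIs per cell, 41.0% (31.5 to 51.0) of control and 26.7% (17.8 to 37.4) of knockdown plasmacytoid cells held 10 or more UMIs of the chain genes.

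In macrophages the chain genes were at 0.942 (0.910 to 0.976), and 2 of 8 measured members were past the fold, against 34.9% of 2925 genes. Ciita was higher, at 32.7 (21 to 48.7) and 56.0 (41.3 to 74.2) CPM from 24 and 48 UMIs, a ratio of 1.71 (1.03 to 2.92). H2-DMb1 was lower, at 0.8 (0.669 to 0.956), and 0.922 with cells gated at 1000 UMIs. The chain gene ratio turned with the gate, to 1.72 with cells gated at 1000 UMIs, where 32 and 20 macrophages were left, and to 0.710 with the stricter gate, which left 40 and 36. Monocytes had the chain genes at 0.918 (0.897 to 0.941) and 1 of 7 measured members past the fold, against 12.4% of 2798 genes. That was H2-DMb1, at 259 (241 to 278) and 204 (188 to 221) CPM, a ratio of 0.787 (0.706 to 0.877), which was 1.00 with cells gated at 1000 UMIs.

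Melanoma cells, the cells that had received the shRNA, had higher class II levels in the knockdown library. Of 6 measured members 5 were past the fold, all higher, against 19.7% of 3140 genes, and their median log2 ratio was 0.53 beside -0.01 for all genes. H2-Aa was at 359 (333 to 386) and 496 (458 to 535) CPM, a ratio of 1.38 (1.24 to 1.54), H2-Ab1 at 1.53 (1.36 to 1.73) and H2-Eb1 at 1.61 (1.41 to 1.83). H2-DMa was at 1.58 (1.28 to 1.96) and H2-DMb1 at 1.29 (1.09 to 1.53), or 1.03 with equal weight per cell, while Cd74, at 1.24 (1.17 to 1.32), was just inside the fold. Ciita had 20 and 25 UMIs, below the minimum of 50 CPM, and a ratio of 1.98 (1.06 to 3.76). A single cell held 45.0% of these UMIs in control and 36.0% in knockdown cells. The chain genes together were at 1.35 (1.29 to 1.41), between 1.23 with equal weight per cell and 1.85 with cells gated at 1000 UMIs.

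Few melanoma cells stood behind that difference. 7 control cells and 3 knockdown cells held 50% of the chain gene UMIs, and 1 knockdown cell of 125258 UMIs held 20.8% of them. Without the top cell of each library the ratio was 1.254, at the fold itself. That knockdown cell showed 8 of 8 melanoma markers, 2 of 25 dendritic, 1 of 5 shared myeloid and 1 of 7 NK markers, 0 of 8 B cell and 0 of 9 macrophage markers, 1 Ptprc UMI and 2 Ctss UMIs. Low counts of dendritic, shared myeloid, NK and B cell markers were a condition of the melanoma gate. Cells of at least 5000 UMIs, 46 and 21 of them, had 2005 and 2717 CPM, and cells below had 1062 (795 to 1389) and 2045 (1733 to 2397). Per barcode the chain genes were nearly equal, 62.1 and 62.4 UMIs, and at 1000 UMIs per cell both libraries had a median of 1.00. Depth differed between the libraries in these cells, as given above, and its part in the ratio was not tested.

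In T cells 0 of 2 measured members were past the fold, against 3.23% of 2788 genes, and the chain genes were at 0.977 (0.930 to 1.03), or 0.763 with cells gated at 1000 UMIs and 0.681 with doublets kept. In NK cells 2 of 5 measured members were past the fold, against 3.76% of 2900 genes. H2-Eb1 was at 37.1 (32.9 to 41.8) and 51.6 (46.9 to 56.7) CPM, a ratio of 1.39 (1.19 to 1.62), and H2-Aa at 1.27 (1.09 to 1.47). For H2-Eb1 the ratio was 1.17 with doublets kept and 1.17 with cells gated at 1000 UMIs. A single knockdown NK cell held 16.7% of the H2-Eb1 UMIs and 13.5% of those of H2-Aa. Without the top cell H2-Aa was at 1.15, with doublets kept at 1.07, and the chain genes together, 1.19 (1.12 to 1.26), were at 0.991 with doublets kept.

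**Figure D5:**
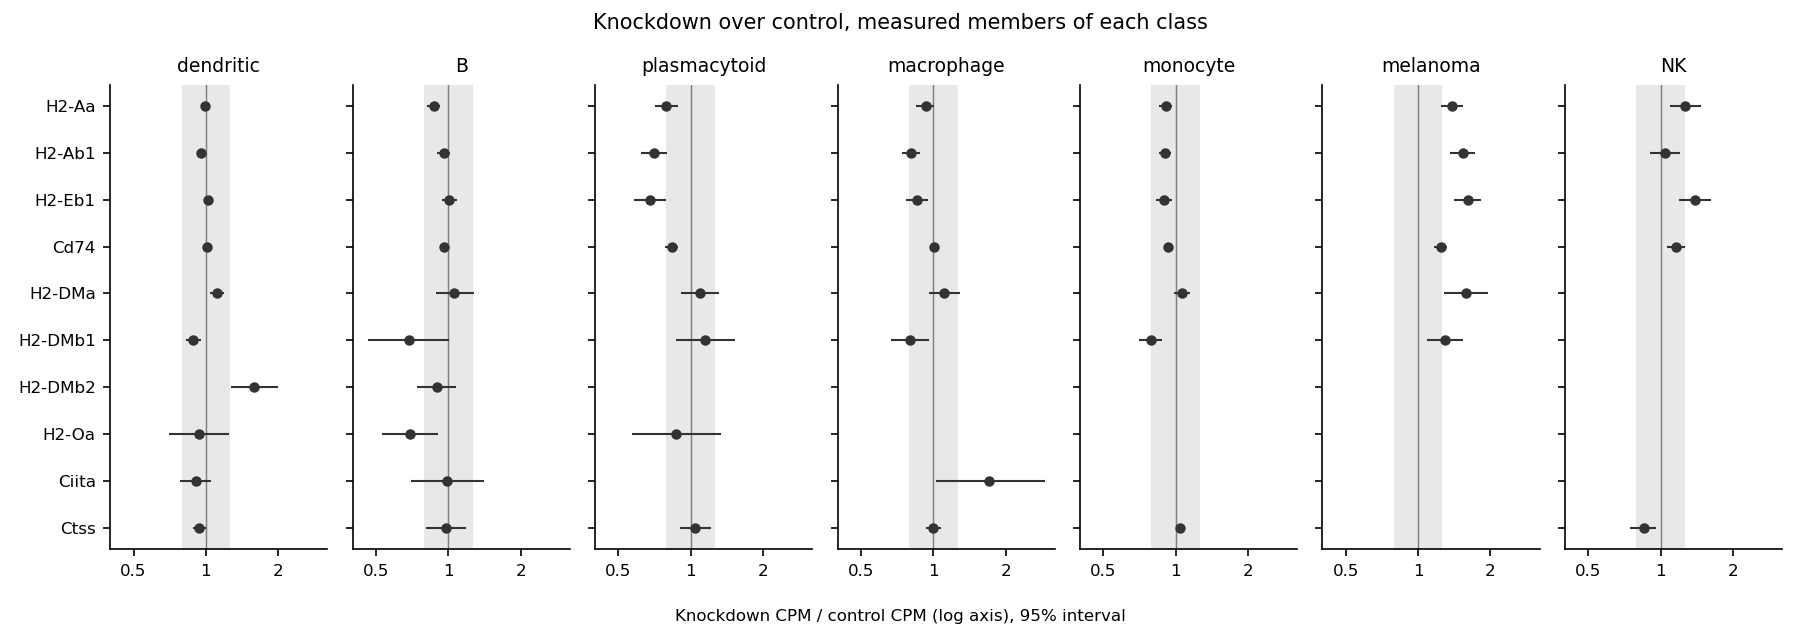
Ratio of knockdown to control CPM (log axis) with exact 95% counting intervals for the members measured in each of 7 classes; the grey band marks ratios from 0.8 to its inverse. Chain genes sit near 1 in dendritic cells, B cells and monocytes, left of the band for H2-Aa, H2-Ab1 and H2-Eb1 in plasmacytoid cells, and right of it for the same genes in melanoma cells.

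Of 34 other genes of the pathway (regulators, class II relatives, endosomal proteases, and turnover and costimulation genes), more were past the fold upward than downward in dendritic cells, B cells, macrophages, monocytes and melanoma cells. In dendritic cells 6 of 23 measured genes were higher and 1 lower, in macrophages 7 and 1 of 21, in monocytes 3 and 1 of 22, and in B cells 4 and 2 of 22. The shares of all genes past the fold in either direction were 23.1%, 34.9%, 12.4% and 35.0% in these classes. Of all genes, 370 were higher and 293 lower in dendritic cells, 500 and 522 in macrophages, 192 and 155 in monocytes and 542 and 475 in B cells. Those higher in dendritic cells included the costimulatory Cd80 (2.61, 1.80 to 3.88), Cd86 (1.40) and Cd40 (1.42), with Cd83 (1.26) and Jak2 (1.30). Rfxap, a subunit of the factor on the X box, was lower at 0.638 (0.467 to 0.869). The knockdown library held more mature cells among its dendritic cells, 51 of 257 against 26 of 255, whose part in these ratios was not tested. Cd83, which holds class II at the surface by opposing March1, was at 1.93 (1.51 to 2.48) in macrophages and 1.40 in monocytes. Irf1, which acts between interferon gamma and Ciita, was at 2.20 (1.66 to 2.94) in melanoma cells and 1.52 (1.31 to 1.78) in macrophages. In melanoma cells 1 knockdown cell held 46.3% of the Irf1 UMIs and 1 control cell 25.3%. In melanoma cells 3 of 12 measured pathway genes were higher and 0 lower, among them Irf1 and the protease gene Ctsb (1.31, 1.16 to 1.47). Of all genes measured in melanoma cells 19.7% were past the fold, 312 higher and 306 lower. Plasmacytoid cells had 1 higher and 1 lower of 16, and T and NK cells 0 of 12 and 0 of 14 past the fold. The shares of all genes past the fold were 34.5% in plasmacytoid cells (542 higher, 565 lower), 3.23% in T cells and 3.76% in NK cells.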

How the data were processed

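Droplet single-cell 3′ RNA libraries were made from sorted CD45+ tumour cells, with 1 library per group and 47538493 and 55417986 UMIs in 11335 and 9542 barcodes (control and knockdown). The authors deposited raw UMI counts per gene and barcode. Cell Ranger 6.1.2, Seurat 4.3 and build mm10 are named in the submitters' processing notes, with no role stated, and the annotation is not given in the sources used here. No deposited barcode had fewer than 500 UMIs.

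Barcodes with at least 200 genes, 500 UMIs and at most 10% mitochondrial UMIs were used. Scrublet scores marked doublets, and the highest scores, 0.8% per 1000 barcodes, were removed (1028 and 728), which left 8950 and 6897 cells. Of these, 77.8% and 78.5% passed 1 gate, by the number of own markers seen: 3 for dendritic, B, T and NK cells, 5 for plasmacytoid and melanoma cells, and, with 3 shared myeloid markers, 3 for macrophages and 4 for monocytes. Each gate also left out cells with more than a few markers of most other classes. T and NK cells with many B cell, dendritic or shared myeloid markers were among those left out. Doublets that escaped removal and free RNA may remain in the gates. The gate minima were set after marker counts had been seen, and the members and lists were chosen with earlier results of these data known.

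CPM was the summed count over the summed UMIs of a class. Intervals were exact at 95% (Poisson for levels, Clopper-Pearson for shares, conditional binomial for ratios) and, like the floor of 3 counts, cover counting error only. Cells were thinned to 1000 UMIs for shares and spread, and log2 ratios had a pseudocount of 10 CPM. With 1 sample per group there was no test. Genes were named if members, if among pathway genes past the fold (1 is not reported here), or if among the 8 genes most like the mean log2 level of H2-Aa, H2-Ab1, H2-Eb1 and Cd74. Alternatives were other cell filters, doublets kept, gating at 1000 UMIs, Leiden clusters made without class II genes, a stricter gate, other denominators, equal weight per cell and leaving out the top cell. Melanoma cells of at least 5000 UMIs were added after seeing the data. The ratio and interval steps were tested on simulated data. Python 3.11.15, numpy 2.4.6, scipy 1.17.1, scanpy 1.11.5 and matplotlib 3.10.9 were used.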

Additional observations from a re-analysis of the deposited data

Results flagged for a closer look

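In these genes the knockdown library was past the fold upward in 1 class and at 0.8 of control or less in another, with counting intervals apart from 1. The difference between classes was not tested, since there was 1 library per group. H2-Aa had a ratio of 1.38 in melanoma cells, 1.27 in NK cells and 0.791 in plasmacytoid cells. H2-Ab1 was at 1.53 in melanoma cells and 0.704 in plasmacytoid cells. H2-Eb1 was at 1.61 in melanoma cells, 1.39 in NK cells and 0.678 in plasmacytoid cells. H2-DMb1 was at 1.29 in melanoma cells (1.03 with equal weight per cell), 0.8 in macrophages and 0.787 in monocytes.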

How the results depend on the processing

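The main values were the knockdown over control ratios of H2-Aa, H2-Ab1, H2-Eb1 and Cd74 together, and their T, NK and melanoma cell levels. For these, 65 alternatives stayed within the counting interval and 69 moved outside it. The other values were single members, medians over members, shares of cells, and the remaining levels of the 4 genes against dendritic cells. Among these 515 stayed, 123 moved and 1 changed direction: H2-DMb1 in monocytes, at a log2 ratio of 0.00 with cells gated at 1000 UMIs. A change of direction was counted only for ratios past the fold in the main setting, so other ratios that crossed 1 were not counted as such. Medians over members were judged by the standard deviation of the members. The cause of these shifts was not tested. The knockdown over control ratio of the 4 genes in dendritic cells was 1.01 with the stricter cell filter, 0.894 gated at 1000 UMIs, 1.01 in clusters and 0.959 with equal weight per cell. It was 0.837 in plasmacytoid cells with doublets kept, and in B cells 0.925 with the stricter filter and 0.987 with the stricter gate. In macrophages it was 0.874 with the stricter filter, 1.72 gated at 1000 UMIs, 0.710 with the stricter gate, 0.983 with equal weight and 0.908 without the top cell. Monocytes gave 0.887 gated at 1000 UMIs, 0.977 with the stricter gate and 0.946 with equal weight. Melanoma cells gave 1.69 with the stricter filter, 1.85 gated at 1000 UMIs, 1.71 in clusters, 1.46 with the stricter gate, 1.23 with equal weight and 1.254 without the top cell. NK cells gave 0.991 with doublets kept, 1.34 in clusters and 1.10 without the top cell, and T cells 0.681 with doublets kept, 0.763 gated at 1000 UMIs and 1.08 in clusters.

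The control T cell level, 0.479% of the dendritic level, was 0.738% with doublets kept, 0.908% gated at 1000 UMIs, 0.578% in clusters, 0.414% with the stricter gate, 0.461% without class II and immunoglobulin UMIs in the denominator, 0.656% with equal weight and 0.508% per barcode. The knockdown level, 0.469%, was 0.453% with the stricter and 0.492% with the looser filter, 0.503% with doublets kept, 0.775% gated at 1000 UMIs, 0.616% in clusters, 0.408% with the stricter gate, 0.452% with the other denominator, 0.694% with equal weight and 0.565% per barcode. The control NK level, 0.731%, was 0.923% with doublets kept, 0.773% in clusters, 0.615% with the stricter gate, 0.664% with equal weight and 0.352% per barcode. The knockdown NK level, 0.870%, was 0.916% with doublets kept, 0.97% gated at 1000 UMIs, 1.03% in clusters, 0.729% with the stricter gate, 0.802% with equal weight, 0.784% without the top cell and 0.429% per barcode. Melanoma cells stood at 12 times the T cell level in the control library, and at 11 with the stricter filter, 7.94 with doublets kept, 6.40 gated at 1000 UMIs, 10.1 in clusters, 13.9 with the stricter gate, 7.57 with equal weight and 61.4 per barcode. In the knockdown library they stood at 16.6 times, and at 19.4 with the stricter and 15.7 with the looser filter, 15.6 gated at 1000 UMIs, 20.7 with the stricter gate, 9.15 with equal weight, 14.7 without the top cell and 38.8 per barcode.

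No paired analysis was possible because each group had 1 library. Clusters made without class II genes held no macrophage class, so that alternative gave no value there. Depth limits the least counted members: Ciita and H2-Oa had at most 25 UMIs in melanoma cells of either library, and H2-DMb2 at most 12 in macrophages and monocytes.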
